A study of Mus musculus with 40 samples.

Results

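Male offspring that met a high fat (HF) diet only through the dam were compared with males that met it only after weaning. The first group, HL, had dams fed the HF diet and was itself fed a low fat (LF) diet after weaning. The second group, LH, had dams fed the LF diet and was itself fed the HF diet after weaning. Animals were chosen by their diet labels alone, which gave 9 HL and 10 LH animals, 19 of the 39 animals of the series with values. All were C57BL/6 males (C57BL/6J in the study's methods) killed at 9 weeks, and liver DNA was examined in each. The remaining groups, LL and HH (10 animals each), had the same diet in both periods and serve here as values on either side. Dams were kept on their diet from before mating until weaning, and in both diets coconut oil was the main fat. HL and LH differed in the diet of both periods, so their difference cannot be assigned to one of them. The study divided the males of a cage between the post-weaning diets, so no HL animal shared a cage of birth with an LH animal, and litter and maternal diet cannot be told apart.

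Methylation of cytosine at CpG sites is a chemical mark on DNA that is copied through cell division and, at promoters, is known to go with low transcription. Early diet has been studied as something that might leave such marks on genes of liver metabolism. Imprinted genes are a special case, since the copies inherited from each parent carry different methylation and a level near the middle of the scale is usual for their control regions. Bisulfite converts unmethylated cytosine and leaves methylated cytosine, so the methylated share of reads over a CpG estimates the methylated share of DNA copies in the tissue. In whole liver, a change of methylation in hepatocytes and a change in the mixture of cells cannot be told apart.

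The measured genes fall into 7 roles. They are imprinted genes (Plagl1, Peg3, Igf2), leptin and its receptor (Lep, Lepr), insulin signalling and gluconeogenesis (Irs1, Pck1, Pck2), receptors that sense foreign compounds (Nr1i2, Nr1i3), retinoid X receptors and their partners (Rxra, Rxrg, Pparg, Nr1h2, Nr1h3), sterol regulation and synthesis (Srebf1, Srebf2, Insig2, Ebp) and NF-kappaB (Nfkb1, Nfkb2). Of 300 CpGs, 293 had a value in at least 5 HL and 6 LH animals and were tested, at 22 loci. Irs1 has 2 loci, one in a coding exon and one in the 5′ UTR. Positions are in the mouse build mm9.

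The stretches below carry the comparison at the loci with the smallest p-values other than Lepr, and at Lep, where the group means were nearly equal. Capital CG marks the CpGs whose methylation was measured. All are read 5′ to 3′ on the plus strand of the reference, as it was before bisulfite treatment.

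Pck1, chr2:172978430-172978548, CpGs 1 to 4, up to the gene start:
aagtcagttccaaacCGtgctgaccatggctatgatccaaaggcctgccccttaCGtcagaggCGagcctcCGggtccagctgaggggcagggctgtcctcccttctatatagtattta

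Plagl1, chr10:12810362-12810496, CpGs 1 to 9, up to the gene start:
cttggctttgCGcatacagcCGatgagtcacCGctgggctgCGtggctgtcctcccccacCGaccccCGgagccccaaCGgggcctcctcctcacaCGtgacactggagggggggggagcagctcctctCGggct

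Nfkb2, chr19:46380134-46380204, CpGs 12 to 18, mostly intron:
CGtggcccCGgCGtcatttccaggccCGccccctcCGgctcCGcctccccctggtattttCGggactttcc

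Lep, chr6:29009945-29010080, CpGs 1 to 11, upstream of the gene:
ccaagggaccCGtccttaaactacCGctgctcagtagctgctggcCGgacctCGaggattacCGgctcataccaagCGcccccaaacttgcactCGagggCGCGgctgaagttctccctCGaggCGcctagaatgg

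For 6 motifs, fixed letters were searched on either strand of every locus except Lepr, and 5 of them had a match, while TGACGTCA, the palindromic form of the response element (1.79% of the promoters described next), had none. The Pck1 stretch holds TTACGTCA, the cyclic AMP response element described for this promoter, at 172978481 to 172978488, and its central CpG is CpG 2. These letters occur in 0.499% of 32851 mouse promoters of 300 bases (RefSeq, build GRCm38.p6). The same stretch holds the core promoter letters TATATA at 172978536 to 172978541 (5.67% of those promoters). In Plagl1, CpG 8 sits in the E-box letters CACGTG (7.15%), and CpG 10, just past the stretch shown, in the Sp1-type letters GGGCGG (35.7%). The match at CpG 10 also touches CpG 11. GGGCGG had 14 matches over the loci searched, among them Pck1 CpG 5 and Nfkb2 CpG 15, and TATATA also matched at Nr1i3. The Nfkb2 stretch ends in a kappaB site (0.155%), whose first letter is the G of CpG 18. A match is a description of the letters and not a shown binding site.

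No difference in sequencing depth was detected between the groups, while depth varied widely between loci. Medians were lowest at Rxra (194 reads), the Irs1 5′ UTR (343), Pparg (360) and Nr1h3 (530). The sum of reads over CpGs ran from 2353905 to 14238090 in HL animals and from 1530126 to 9522037 in LH animals (exact permutation p = 0.388, 2-sided). The median number of reads per CpG of an animal was 7290.5 at the median HL animal and 5680 at the median LH animal (exact permutation p = 0.277). No locus passed a test of depth between the groups (exact permutation test, smallest adjusted p 0.615 over 22 loci). Over the 7 loci below 2% that had a value in all 19 animals, the mean level was 0.746% ± 0.0319 (SD) in the 9 HL animals and 0.750% ± 0.0862 in the 10 LH animals (exact permutation p = 0.896). PCR reads without molecular identifiers are not independent molecules. Whether both reads of a pair were counted is not stated and was not tested. Of total read counts 77.6% were even, and of methylated read counts 78.1%. At Lepr CpG 7 and Rxra CpG 9 both counts were even in every HL and LH animal with a value. Intervals on reads thus cover counting error at most, and are too narrow where both reads of a pair were counted.

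Mean methylation was lower in HL than in LH at Pck1, Lepr and Plagl1, the loci with the smallest p-values among those at 2% or above. As loci they did not pass the adjusted threshold, while 1 CpG of Lepr did. Differences were tested by an exact 2-sided permutation test of the difference in means, with Benjamini-Hochberg adjustment over all CpGs or all loci and a threshold of 0.05. By that test 1 of 293 CpGs passed (0.341%) and 0 of 22 loci passed, where a quasi-binomial model of the reads passed 2 loci and limma 0. Without adjustment 33 CpGs had p under 0.05 (11.3%, where 14.65 CpGs would be 5% of those tested), 22 of them lower in HL (7.51%) and 11 higher (3.75%). For loci the unadjusted count was 4 of 22 (18.2%). These were Pck1, Lepr and Plagl1, lower in HL, and Nfkb2, a locus under 2% that was higher in HL by 0.11 points (exact permutation p = 0.0229). In no CpG did all animals of one group lie above all animals of the other. CpGs of one amplicon share reads and are not independent, so counts of CpGs largely count loci.

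**Figure D1:**
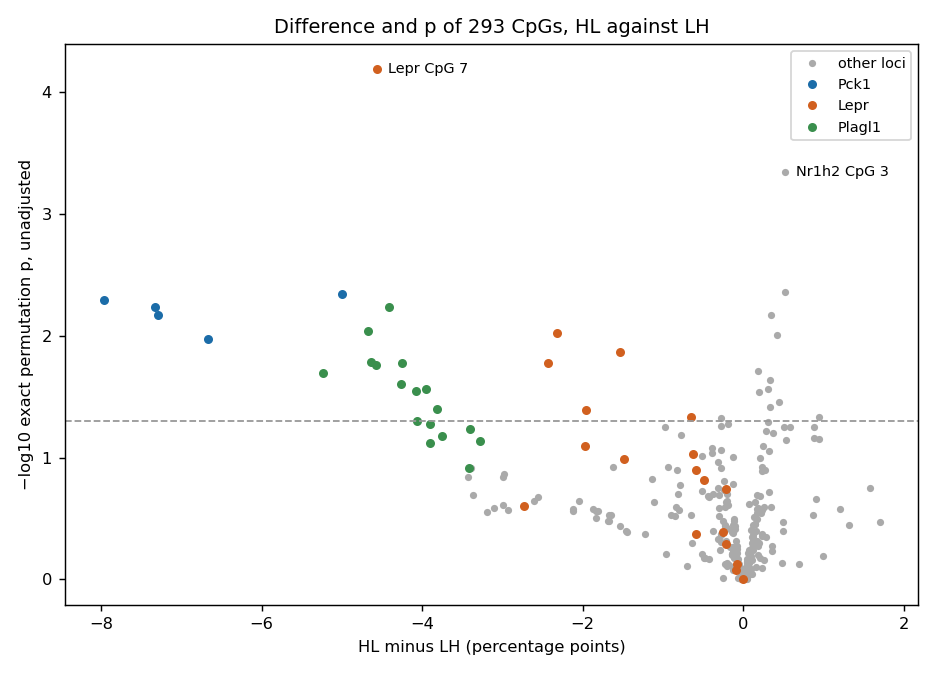
Each point is 1 of 293 CpGs, with the difference HL minus LH in percentage points on the horizontal axis and the −log10 of the unadjusted exact permutation p on the vertical axis. The dashed line marks p = 0.05. Pck1 CpGs 2 to 5 lie farthest to the left, at -6.67 to -7.97 points, while Lepr CpG 7 lies highest.

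Of the 10 loci with means from 2% upward 7 were lower in HL, and of the 12 loci under 2% 7 were lower. Among the 103 CpGs at the first kind of locus, 84 were lower in HL and 19 higher, and the median difference was -1.53 points. All 21 CpGs there with an unadjusted p under 0.05 were lower in HL, and they belonged to Plagl1, Lepr and Pck1. Among the 190 CpGs at the loci under 2%, 95 were lower and 95 higher, and the difference between both kinds of locus was not tested. There 11 of the 12 CpGs with an unadjusted p under 0.05 were higher in HL, by at most 0.95 points (Rxra CpG 9). Rxra had a median of only 194 reads. The Wilson interval of this CpG had a median half-width of 1.51 points per animal, with each read taken as independent. That half-width belongs to a single animal and not to the difference between group means. Over all tested CpGs 179 were lower in HL (61.1%), with a median difference of -0.10 points.

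Among the genes of insulin signalling and gluconeogenesis, Pck1 encodes the cytosolic phosphoenolpyruvate carboxykinase, the enzyme that commits carbon to glucose synthesis in liver. Its 5 CpGs lie across the gene start on chromosome 2 (172978445 to 172978561), 4 upstream and 1 in the 5′ UTR. The locus mean of HL replicates 2 to 10 was 21.1, 18.7, 27.2, 20.5, 22.1, 22.1, 22.1, 17.6 and 20.8%. In LH replicates 1 to 10 it was 23.6, 25.5, 42.5, 23.95, 20.05, 35.5, 23.1, 26.2, 30.6 and 31.2%. All HL animals but replicate 4 lay under the LH median of 25.8%, and LH replicate 5 lay below the HL median of 21.1%, so the groups overlapped. The mean was 21.4% ± 2.70 (SD, n = 9) in HL and 28.2% ± 6.80 (n = 10) in LH. HL minus LH was -6.85 points (95% permutation interval -12.0 to -1.98, exact permutation p = 0.00530, adjusted p = 0.117). Without HL replicate 4, the highest HL animal, the adjusted p was 0.0182 (-7.59 points), and without LH replicate 5, the lowest LH animal, it was 0.0240 (-7.76 points). Without LH replicate 3, the highest animal of all, the difference was -5.26 points and the adjusted p 0.220. A quasi-binomial model of the reads, which gives deeper animals more weight, put it at 0.0349. Beside these, LL stood at 28.2% ± 8.52 and HH at 24.7% ± 3.47, so HL had the lowest mean of the 4 groups.

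All 5 Pck1 CpGs were lower in HL, from a difference of -4.999 points at CpG 1 to -7.97 points at CpG 5, each with an unadjusted p under 0.05 and an adjusted p of 0.221 or 0.240. The CpGs varied together across the 19 animals (median Pearson r between pairs of CpGs 0.964, lowest 0.935), and they were measured on the same amplicon. CpG 2, the CpG of the response element, was at 22.9% ± 2.85 in HL and 30.2% ± 7.52 in LH. CpG 5 (172978561) had the largest difference of any tested CpG, with 25.5% ± 3.12 in HL and 33.4% ± 7.83 in LH (interval -13.9 to -2.39, exact permutation p = 0.00511). Median depth at the locus was 34936 reads. The Wilson interval of CpG 5 had a median half-width of 0.617 points per animal, far narrower than the spread between animals.

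The rest of this role showed little. Of its 40 tested CpGs, 29 were lower in HL and 11 higher, and the 5 with an unadjusted p under 0.05 were all in Pck1. Irs1, an adaptor between the insulin receptor and its downstream kinases, was almost fully methylated in its coding exon (chr1:82285756-82285857), with 94.2% ± 1.29 in HL and 94.7% ± 1.17 in LH (interval of the difference -1.66 to 0.70 points). Its 5′ UTR (chr1:82287315-82287497) was at 0.787% ± 0.193 in 8 HL animals and 0.883% ± 0.273 in 8 LH animals. Pck2, the mitochondrial form of the carboxykinase, was at 0.715% ± 0.117 and 0.767% ± 0.202 (interval -0.22 to 0.11 points).

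**Figure D2:**
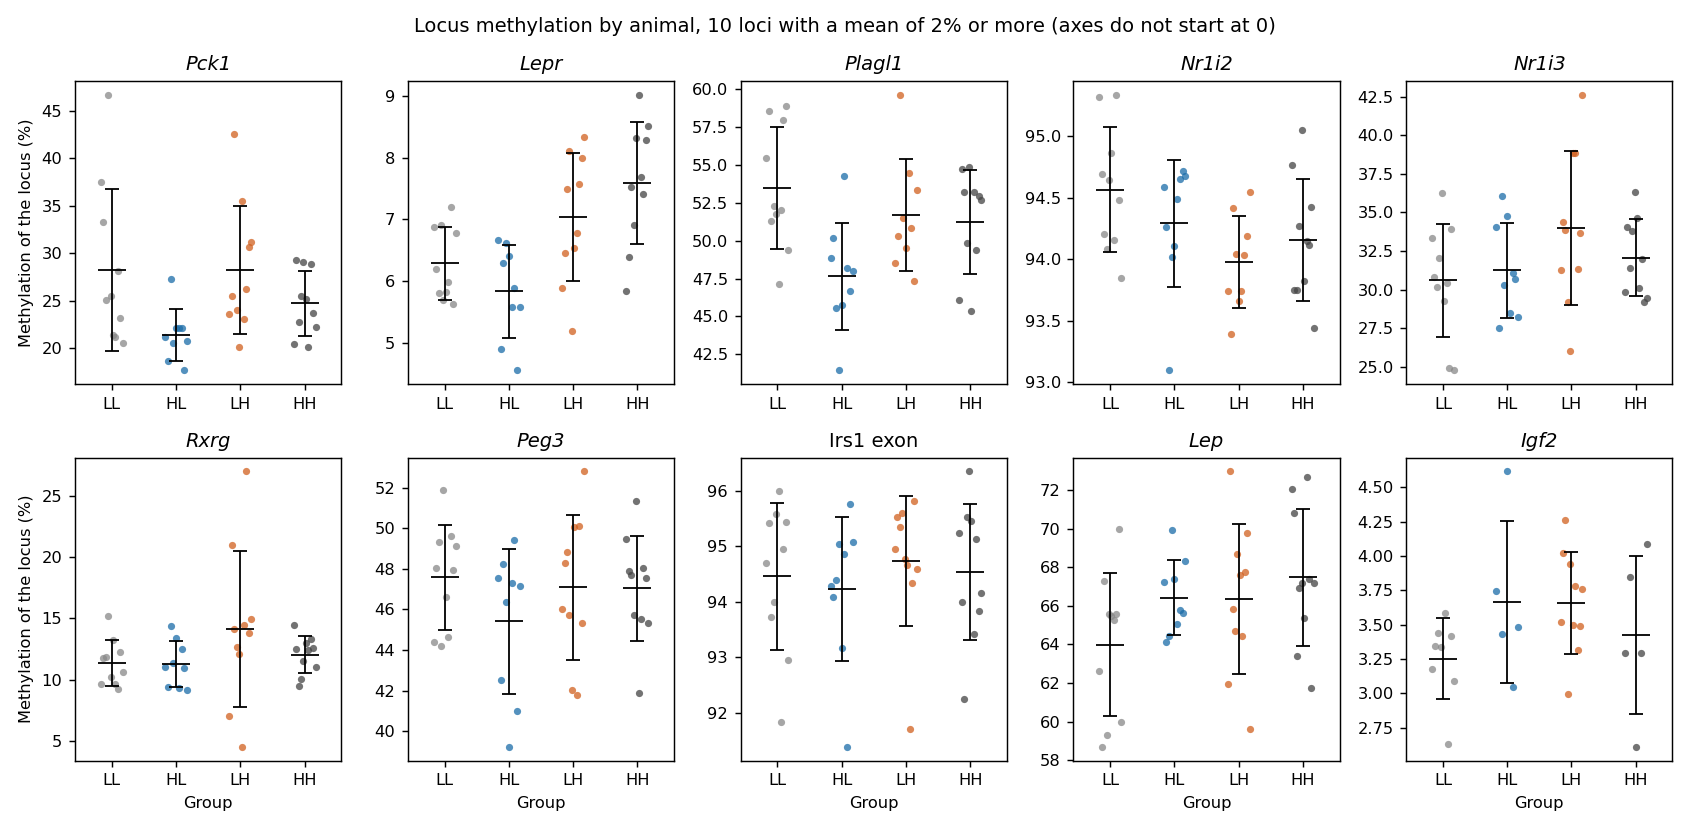
Each panel is 1 of the 10 loci whose mean is at least 2%, ordered by p from the upper left. Points are animals in the 4 diet groups, the wide tick is the mean and the bars are ± 1 SD, with methylation in percent on an axis that does not start at 0. At Pck1 8 of the 9 HL animals lie under the LH median of 25.8%, and at Lep the HL and LH means are 66.4% and 66.3%.

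Of leptin and its receptor, Lepr encodes the receptor for leptin, the hormone that reports fat stores, and was measured at 19 CpGs across its gene start on chromosome 4. CpG 7, upstream of the gene, was the CpG that passed the adjusted threshold. Its methylation in HL replicates 2 to 10 was 17.2, 10.8, 16.1, 15.9, 16.1, 14.7, 15.99, 14.7 and 16.7%. In LH replicates 1 to 10 it was 16.9, 17.3, 17.9, 23.2, 17.1, 22.7, 18.9, 22.2, 19.3 and 23.8%. All 9 HL animals lay under the LH median, and the groups overlapped only through HL replicate 2, which was above LH replicates 1 and 5. The mean was 15.4% ± 1.88 (SD, n = 9) in HL and 19.9% ± 2.77 (n = 10) in LH, a difference of -4.56 points (interval -6.95 to -2.23). By the exact permutation test p was 6.5e-05, and 0.0190 after adjustment over 293 CpGs. The call held without any 1 animal (adjusted p from 0.0127 to 0.0402) but was lost with limma on log2 ratios of reads (adjusted p = 0.277) and with limma on the percentages of all 4 groups (adjusted p = 0.284). Median depth was 7520 reads, and the Wilson interval had a median half-width of 0.866 points per animal, with each read taken as independent. LL stood at 16.2% and HH at 21.1%, so the means of the groups fed LF after weaning lay below those of the groups fed HF after weaning.

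The rest of Lepr went the same way with smaller differences. HL was lower at 18 of 19 CpGs, and 6 had an unadjusted p under 0.05 (CpGs 2, 3, 4, 7, 8 and 15). CpG 17 was the exception, with 1.38% in HL and 1.37% in LH. Methylation dropped sharply along the locus. Over CpGs 1 to 9, upstream of the gene start, it was 10.3% ± 1.30 in HL and 12.5% ± 1.82 in LH, while over CpGs 10 to 19, past the start, it was 1.84% ± 0.368 and 2.16% ± 0.433. The locus mean of HL replicates 2 to 10 was 6.66, 4.91, 6.30, 6.62, 6.41, 5.59, 5.89, 4.56 and 5.59%, and that of LH replicates 1 to 10 was 5.89, 6.45, 7.49, 8.11, 5.2004, 6.54, 6.79, 7.58, 7.99 and 8.33%. All 9 HL animals were again under the LH median, with LH replicates 1, 2, 5 and 6 inside the HL range. The means of 5.84% ± 0.746 (n = 9) and 7.04% ± 1.03 (n = 10) differed by -1.20 points (interval -2.08 to -0.31, exact permutation p = 0.0118, adjusted p = 0.130). The locus passed without LH replicate 5 (adjusted p = 0.0240), stood at an adjusted p of 0.230 without LH replicate 4, and passed in the quasi-binomial model (adjusted p = 0.0349). Without CpG 7 the locus means were 5.31% and 6.32%. LL stood at 6.30% ± 0.589 and HH at 7.59% ± 0.993.

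At Lep, the leptin gene, the groups had nearly the same mean, 66.4% ± 1.92 in HL and 66.3% ± 3.89 in LH. Their difference was 0.09 points (interval -2.90 to 3.09, exact permutation p = 0.952). Levels differed more between the 11 CpGs of Lep, from 53.9 to 83.8% in HL, than between groups. Its CpG with the smallest p, CpG 4, was at 61.1% ± 3.62 and 59.4% ± 3.97. LL stood at 64.0% ± 3.71 and HH at 67.5% ± 3.55.

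**Figure D3:**
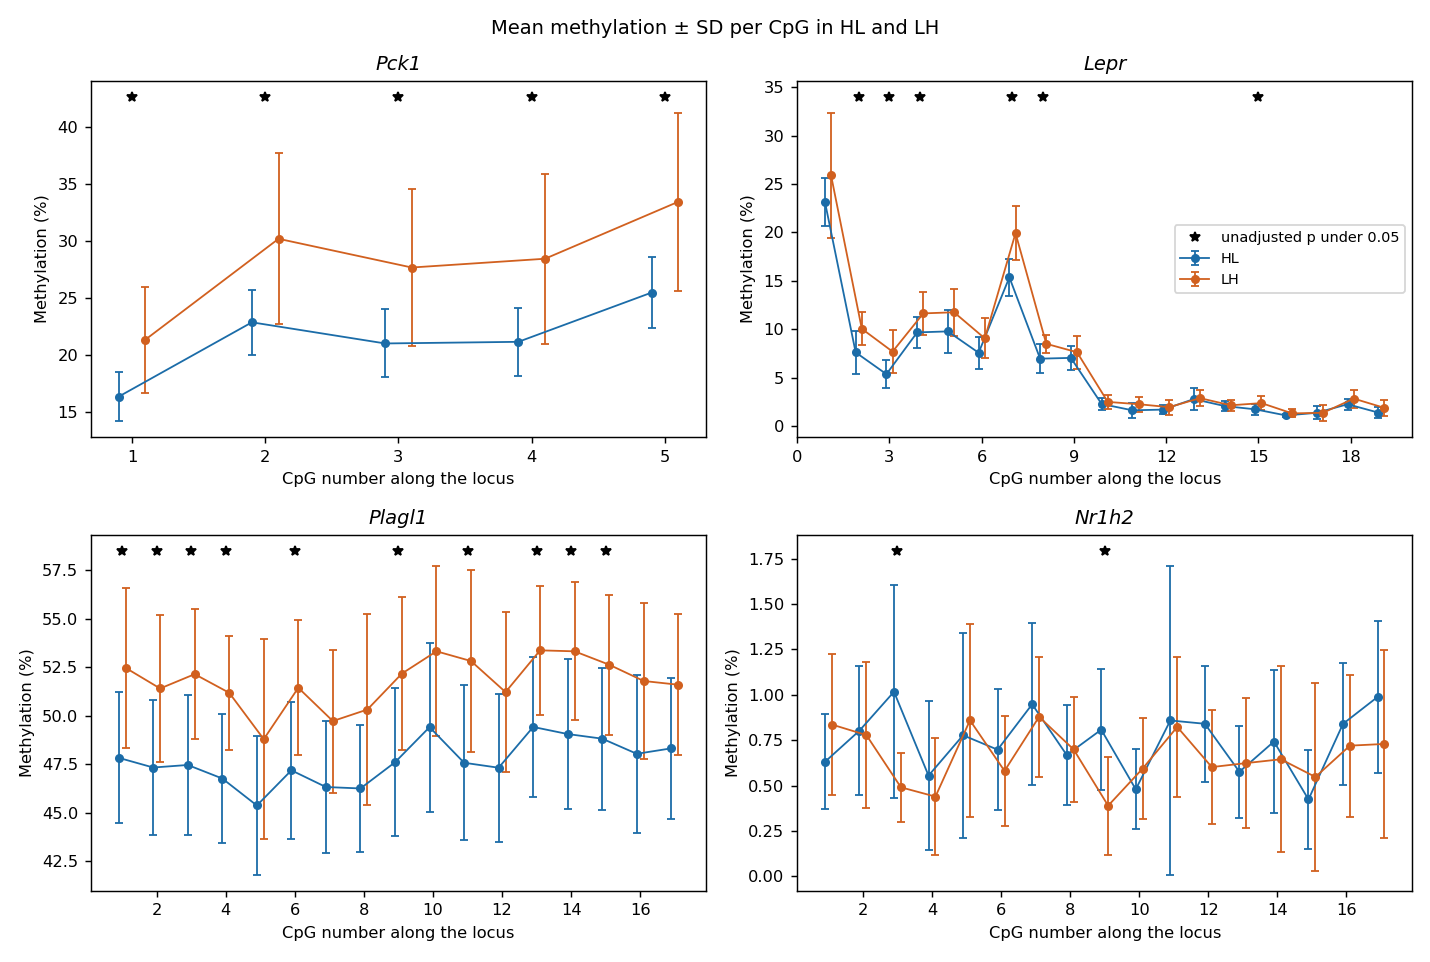
Mean methylation in percent (± 1 SD between animals) of HL and LH at each CpG of Pck1, Lepr, Plagl1 and Nr1h2, with CpGs numbered along the locus. Stars mark CpGs with an unadjusted p under 0.05. HL lies under LH at all 5 CpGs of Pck1, at 18 of 19 of Lepr and at all 17 of Plagl1, whereas the lines of Nr1h2 cross.

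Among the imprinted genes, Plagl1 encodes a zinc finger protein of the imprinted growth network and was measured at 17 CpGs of its differentially methylated promoter region (chr10:12810372-12810570). The locus mean of HL replicates 2 to 10 was 48.9, 50.2, 45.6, 41.4, 45.8, 54.3, 48.2, 46.7 and 48.0%. In LH it was 48.5, 50.3, 59.6, 51.5, 49.5, 54.5, 50.8, 47.3 and 53.3% in the 9 animals with enough CpGs, which leave out replicate 8. HL lay under the LH median of 50.8% in all animals but replicate 7, and the ranges overlapped widely. The means of 47.7% ± 3.53 and 51.7% ± 3.70 (n = 9 each) differed by -4.06 points (interval -7.69 to -0.49, exact permutation p = 0.0271, adjusted p = 0.149). Without LH replicate 3, the highest animal, the difference was -3.07 points (exact permutation p = 0.0542). LL had the highest mean, 53.5% ± 4.04, and HH stood at 51.2% ± 3.41.

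All 17 Plagl1 CpGs were lower in HL, with differences of -3.28 to -5.24 points, and 10 had an unadjusted p under 0.05. CpG 4 had the smallest p, with 46.8% ± 3.31 in HL and 51.2% ± 2.92 in LH (exact permutation p = 0.00576, adjusted p = 0.221). CpG 3 followed with 47.5% ± 3.60 and 52.2% ± 3.37, and passed without HL replicate 7 (adjusted p = 0.0349), while without LH replicate 3 its adjusted p was 0.384. The largest difference was at CpG 11, with 47.6% ± 3.999 and 52.8% ± 4.69. CpG 8, in the E-box, was at 46.3% ± 3.26 in HL and 50.3% ± 4.94 in LH (exact permutation p = 0.0504). Depth was a limit here: at a median of 804 reads for the locus, the 95% Wilson interval of CpG 3 had a median half-width of 3.49 points. A 95% half-width is wider than a standard error, so it is not on the scale of the SDs between animals (3.60 and 3.37). The CpGs varied together (median r 0.902), and they share reads.

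The other imprinted genes did not show a difference of this size with a small p. Peg3, a paternally expressed gene, was lower in HL at all 11 CpGs, with differences of -1.45 to -1.88 points and locus means of 45.4% ± 3.57 and 47.1% ± 3.57 (interval -5.15 to 1.80, exact permutation p = 0.318). Igf2, the fetal growth factor gene, was at 3.67% ± 0.587 in 5 HL animals and 3.66% ± 0.371 in 10 LH animals. Over the role, 31 of 39 CpGs were lower in HL, with a median difference of -1.83 points against -0.10 over all CpGs tested. All imprinted loci were among those of 2% or more. Over that whole kind of locus 84 of 103 CpGs were lower in HL, with a median of -1.53 points, so the role was close to it. The 10 CpGs of the role with an unadjusted p under 0.05 were all in Plagl1.

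**Figure D4:**
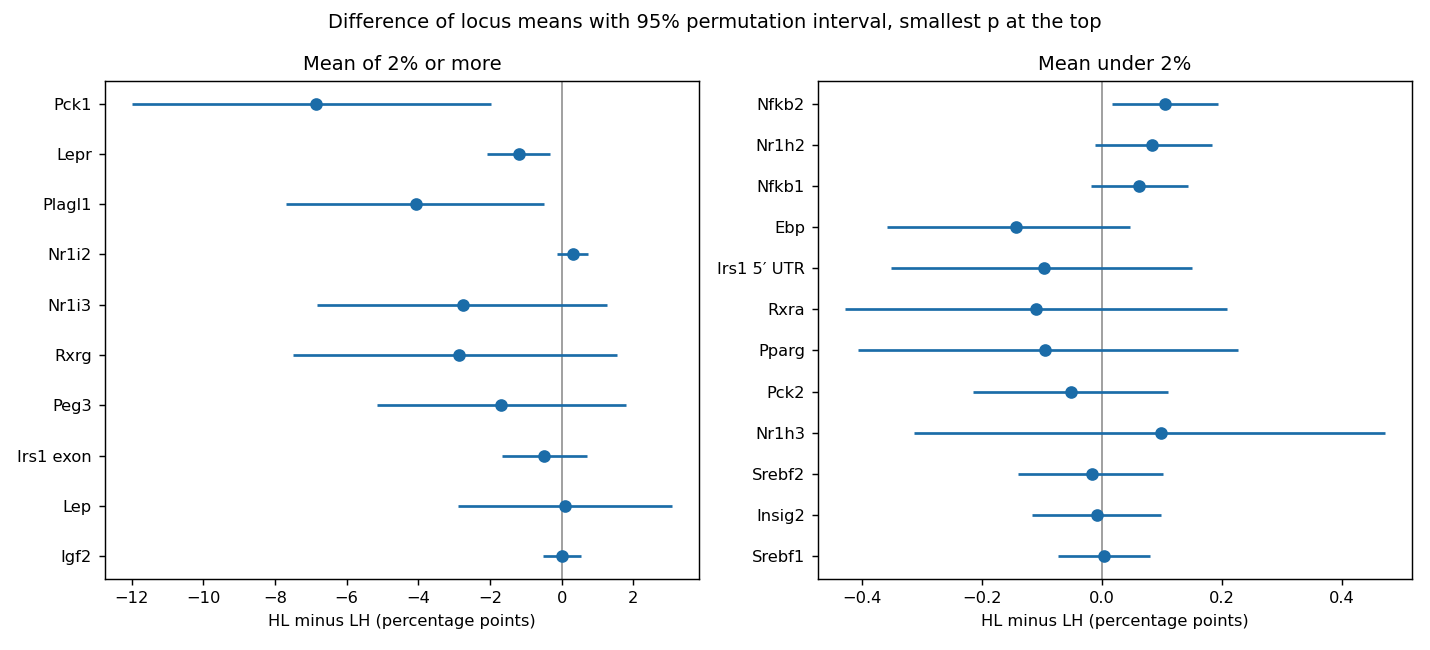
Difference of the locus mean, HL minus LH, in percentage points, with its 95% interval from the permutation test, for the 10 loci whose mean is at least 2% and, on a narrower scale, the 12 loci under 2%. The intervals of Pck1, Lepr, Plagl1 and Nfkb2 leave out 0, before adjustment for 22 loci, while that of Lep runs from -2.90 to 3.09.

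Among the receptors of foreign compounds, Nr1i3, the constitutive androstane receptor gene, was measured at 4 CpGs upstream (chr1:173143385-173143516). It ran from 27.5 to 36.1% (median 30.7%) in HL and from 26.0 to 42.6% (median 33.8%) in LH. All 4 CpGs were lower in HL, with means of 31.2% ± 3.08 and 34.0% ± 4.98 for the locus (interval -6.84 to 1.28, exact permutation p = 0.169, adjusted p = 0.413). Nr1i2, the pregnane X receptor gene, was near full methylation, with 94.3% ± 0.516 in HL and 94.0% ± 0.374 in 9 LH animals (interval -0.14 to 0.75). Of the 9 CpGs of this role, 0 had an unadjusted p under 0.05.

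Among the retinoid X receptors and their partners, Rxrg, a retinoid X receptor gene measured in its 5′ UTR and an intron, had the widest range of LH animals relative to HL animals, with 2 shallow LH libraries at the ends of that range. HL animals lay between 9.13 and 14.4% (median 11.1%), and LH animals between 4.49 and 27.0% (median 13.9%). LH replicates 2 and 8 were the highest, at 21.0 and 27.0%, and LH replicates 1 and 6, at 6.996 and 4.49%, lay below every HL animal. The means of 11.3% ± 1.86 and 14.2% ± 6.36 did not differ beyond that spread (interval -7.51 to 1.55, exact permutation p = 0.220), although all 10 CpGs were lower in HL. LH replicates 6 and 8, the lowest and the highest animal, had medians of 398.5 and 123 reads per CpG at this locus, against 12538 to 78340 in the 17 other animals. Without LH replicate 6 the difference was -3.95 points and without LH replicate 8 it was -1.45 points. At a minimum of 1000 reads, which leaves out both, the LH mean was 13.8% ± 3.86 (n = 8) and the difference -2.48 points (exact permutation p = 0.105).

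Nr1h2, which encodes the oxysterol receptor LXR beta, was almost unmethylated but held the CpG with the second smallest p. At CpG 3 (chromosome 7, 51809271, 5′ UTR) HL replicates 2 to 10 were at 0.828, 0.968, 0.758, 0.769, 0.757, 0.947, 2.57, 0.747 and 0.805%. LH replicates 1 to 10 were at 0.371, 0.546, 0.382, 0.717, 0.555, 0.329, 0.353, 0.901, 0.361 and 0.387%. All LH animals but replicate 8 lay under every HL animal. The means were 1.02% ± 0.587 and 0.490% ± 0.190, with HL replicate 8 well above the rest (difference 0.53 points, interval 0.21 to 0.92, exact permutation p = 0.000455, adjusted p = 0.0666). It passed without LH replicate 4 (adjusted p = 0.0422) or LH replicate 8 (0.0121), and where fewer CpGs were tested, those with 1000 reads (0.0498) or with a value in every animal (0.0423). Without HL replicate 8 the difference was 0.33 points (adjusted p = 0.141), and limma on the percentages of all 4 groups put the adjusted p at 0.284. The median half-width of the Wilson interval was 0.178 points. Such levels are of the order of the mean over the loci below 2% with a value in all animals, 0.746% in HL and 0.750% in LH. Whether incomplete conversion contributed was not tested.

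Among the CpGs of Nr1h2, 2 had an unadjusted p under 0.05, CpG 3 being 1 of them, and both were higher in HL. HL was higher at 11 of its 17 CpGs and lower at 6, and the median r between CpGs was -0.01. The locus mean of HL replicates 2 to 10 was 0.654, 0.771, 0.638, 0.751, 0.693, 0.733, 1.05, 0.702 and 0.705%, and that of LH replicates 1 to 10 was 0.706, 0.585, 0.479, 0.715, 0.664, 0.674, 0.732, 0.617, 0.648 and 0.785%. The ranges overlapped, and HL was higher by 0.08 points (exact permutation p = 0.0930). Rxra, Pparg and Nr1h3 (LXR alpha) lay under 2% in both groups, with intervals of -0.43 to 0.21, -0.41 to 0.23 and -0.31 to 0.47 points. Pparg and Nr1h3 had values in 5 HL animals each. Of the 18 tested CpGs of Nr1h3, 8 lie outside the stretch between the matched primers, and with the other 10 alone its difference was -0.23 points instead of 0.10 points. In the whole role 39 of 67 CpGs were lower in HL, and the 3 with an unadjusted p under 0.05 were higher (2 in Nr1h2 and 1 in Rxra). Over all loci under 2%, 11 such CpGs were higher and 1 was lower.

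For NF-kappaB, Nfkb2 encodes the precursor of the p52 subunit and was measured at 18 CpGs in an intron and the 5′ UTR (chr19:46379984-46380194). HL replicates 2 to 10 were at 0.991, 0.823, 0.741, 0.733, 0.803, 0.816, 0.872, 0.763 and 0.731%, all above the LH median of 0.689%. LH replicates 1 to 10 were at 0.776, 0.902, 0.686, 0.601, 0.667, 0.718, 0.692, 0.618, 0.581 and 0.786%. The means of 0.808% ± 0.0836 and 0.703% ± 0.0979 differed by 0.11 points (interval 0.02 to 0.19, exact permutation p = 0.0229, adjusted p = 0.149), with LL at 0.7997% and HH at 0.781%. LH thus had the lowest mean of the 4 groups. CpG 7 had the smallest p of the locus, with 0.942% ± 0.491 in HL and 0.420% ± 0.262 in LH (adjusted p = 0.221).

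Nfkb1, the gene of the p50 precursor, went the same way by a smaller amount. HL replicates 2 to 10 were at 0.799, 0.883, 0.804, 0.865, 0.770, 0.880, 0.848, 0.976 and 0.769%. LH replicates 1 to 9 were at 0.739, 0.698, 0.724, 0.718, 0.687, 0.881, 0.943, 0.870 and 0.772%. Every HL animal lay above the LH median of 0.739%, but LH replicates 6 to 9 reached into the HL range. The means of 0.844% ± 0.0665 and 0.781% ± 0.0927 (n = 9 each) had an exact permutation p of 0.119. In the role 25 of 37 CpGs were higher in HL, with a median difference of 0.11 points, and all 5 with an unadjusted p under 0.05 were higher. Over all loci under 2%, 95 of 190 CpGs were higher in HL. Of those with an unadjusted p under 0.05 there, 11 were higher and 1 was lower, so that direction was not particular to this role. No conversion control was examined here.

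In sterol regulation and synthesis, Srebf1 and Srebf2, the genes of the transcription factors that drive lipid and cholesterol synthesis, Insig2, which holds them in the endoplasmic reticulum, and Ebp, an X-linked enzyme of cholesterol synthesis, were all under 1% in both groups. Their locus differences ran from -0.14 points (Ebp) to 0.00 points (Srebf1) and the widest interval was that of Ebp, -0.36 to 0.05 points. At Ebp, LH replicate 5 had a median of 112 reads per CpG, against 16650 or more in the 18 other animals, and without it the difference was -0.07 points. Of 71 CpGs, 39 were lower in HL and 32 higher. Without adjustment 1 CpG was lower and 3 were higher, among them Srebf1 CpG 20, with 0.577% ± 0.123 in HL and 0.396% ± 0.172 in LH (adjusted p = 0.297).

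The spread between animals was also compared. The SD of the locus mean was larger in LH at 18 of 22 loci and larger in HL at 4 (Irs1 exon, Nr1i2, Nr1h2 and Igf2), and the median ratio of LH to HL was 1.29. The largest ratios were 3.42 at Rxrg, 2.52 at Pck1, 2.21 at Nr1h3, 2.11 at Ebp and 2.02 at Lep. Of these, Rxrg and Ebp rested in part on the shallow libraries named above, and Nr1h3 on 5 HL animals. In LL and HH, given with no test, the SD was 8.52 and 3.47 at Pck1, 3.71 and 3.55 at Lep, and 1.88 and 1.52 at Rxrg. At Pck1 and Lep, HL thus had the smallest SD of the 4 groups, and at Pck1 LL had a larger SD than LH (6.80). At Rxrg, LH had the largest. At a minimum of 1000 reads (added after the data were seen) the ratio was 2.07 at Rxrg, 1.03 at Ebp and 2.52 at Pck1, and the SD was larger in LH at 14 of the 18 loci that were left. In an exact permutation test of the deviation from the group median, 0 of 22 loci passed the adjusted threshold (0%) and 0 had an unadjusted p under 0.05, and the smallest p was 0.0693 at Pck1. With deviations from the group mean, the p at Pck1 was 0.00860 (adjusted p = 0.189), so 1 locus then had an unadjusted p under 0.05. Leaving out 1 animal at a time gave 0 to 1 such loci.

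**Figure D5:**
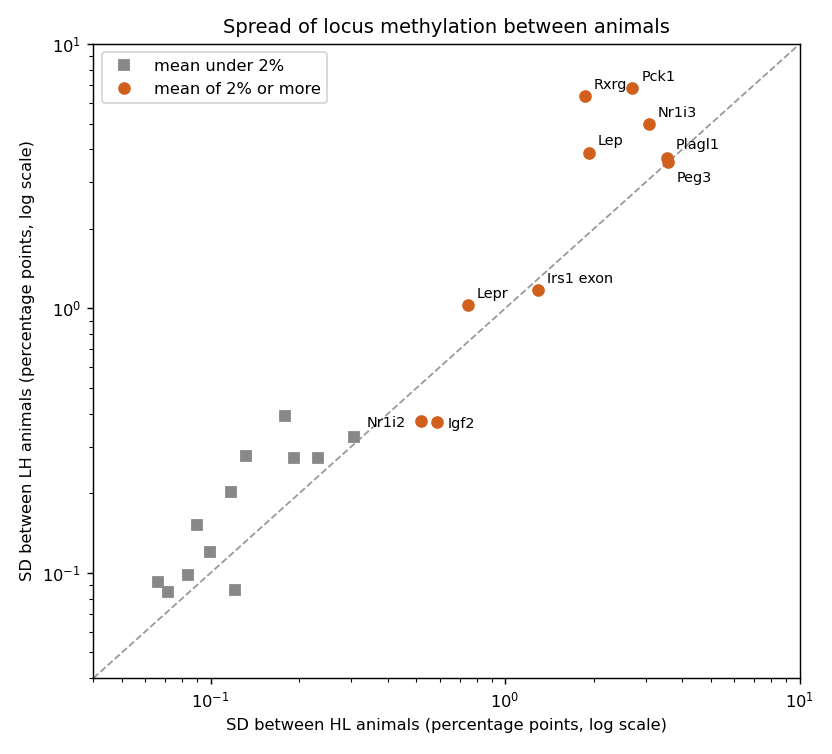
SD of the locus mean between LH animals against that between HL animals, in percentage points on log axes, with a dashed line of equal SD. Squares are the 12 loci under 2% and circles the 10 others. Points above the line are the 18 loci with the larger SD in LH, with Rxrg (ratio 3.42, or 2.07 at a minimum of 1000 reads) and Pck1 (2.52) farthest from it.

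Animals of one group may share litters. The animal numbers in the labels fall into runs (numbers at most 3 apart), 5 in HL and 4 in LH, and whether a run stands for a litter is not stated. The run means did not overlap at 2 of 22 loci (9.09%). At Pck1 they lay between 19.2 and 22.9% in HL and between 24.6 and 33.2% in LH, and at Plagl1 between 47.2 and 48.9% in HL and between 49.4 and 55.6% in LH. Both reached an exact permutation p of 0.0159, the smallest that 5 against 4 runs allow, and the adjusted p was 0.175, so that few loci alone could not pass on runs. At Lepr the run means overlapped (5.07 to 6.66% and 6.17 to 7.97%, exact permutation p = 0.111), and at Lepr CpG 7 the difference over runs was -4.154 points (exact permutation p = 0.0317, adjusted p = 0.310). With so few runs a CpG could pass the adjusted threshold only together with many others, so these values give the size of the difference over runs and no test of the call.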

How the data were processed

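Liver DNA was treated with bisulfite, 22 loci were amplified by PCR and the pooled products of each animal were barcoded and sequenced. The authors deposited for each animal the counts of methylated and total reads at each CpG, and a table of the methylated fraction, which equalled the ratio of the deposited counts to within 5e-16 over 11071 values. The submitters' processing notes name Bismark and mm9; the Bismark version is not given in the sources used here. All 300 positions were the C of a CpG in that build (NCBIM37, GENCODE M1 annotation), and the primer pairs of the study matched all 22 loci. Sequence and coordinates are left out for Lepr. Every total read count above 0 was at least 100 reads, so minima of 1 and 100 reads select the same values as the minimum of 10. Of the labelled animals, 10 were HL and 9 of these had values; HL replicate 1 was not analysed here. No column of values per animal was left unused (0).

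Methylation was taken as 100 times methylated over total reads, with at least 10 reads, and CpGs with values in at least 5 HL and 6 LH animals were tested. CpGs within 1000 bp formed a locus, and an animal needed 80% of its CpGs. The exact permutation p is the smaller tail doubled over all 92378 splits of 9 and 10 animals, and intervals invert that test. The study's methods name Student's t and Wilcoxon tests. The exact permutation test was used in place of the former, and Student's t-test was not run here. Separate animals were the replicates; the closest pair of libraries, HL replicates 2 and 10, differed by 0.927 points per CpG. LL and HH values are given with no test. Loci, gene roles and tests were chosen with earlier results of these data known. All loci are named; single CpGs are named when past the threshold, among the 10 smallest p, among the 5 largest differences or first at their locus, and others (the CpGs in motifs, Lepr CpG 17) were named after their values were seen. Alternatives were a rank statistic, limma 3.58.1 on log2((methylated + 1)/(unmethylated + 1)) and on percentages of 4 groups, a quasi-binomial model, minima of 1, 100 and 1000 reads, other filters on animals and levels, pooled reads, run means and leaving out each animal. The permutation, rank, limma and quasi-binomial tests of CpGs, the spread test and the intervals were tried on simulated data of 2 groups. CpGs were drawn independently there, and locus means, pooled reads, run means and the limma fit of 4 groups were not simulated. Computations ran in R 4.3.3 and Python 3.11.15 with scipy 1.17.1, numpy 2.4.6 and pandas 2.3.3.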

Additional observations from a re-analysis of the deposited data

Results flagged for a closer look

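A rule for outlying values was applied to 48 groups of values, taken in HL and in LH. These were each locus mean, the median reads per CpG and the mean of the loci under 2%. In 6 of them 1 animal lay well apart from its group, and chance would give about 2.4. At Pck1, HL replicate 4 was at 27.2%, with the next HL animal at 22.1%. At Nr1i2 the same animal was lowest, at 93.1% against 94.0%. At Nr1h2, HL replicate 8 was at 1.05% against 0.771%. At the coding exon of Irs1, LH replicate 7 was at 91.7% against 94.3%. At Ebp, LH replicate 5 was at 1.59% against 1.06%, on a median of 112 reads per CpG where the other LH animals had 16650 or more. The median reads per CpG of LH replicate 10 was 12920, with the next LH animal at 8894, which is a matter of depth and not of level.

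Among the 7 CpGs with too few animals to be tested, Nr1h3 CpG 1 (chromosome 2, 91035011) had 15 methylated of 1376 reads over 5 HL and 2 LH animals, 1.09%, above the 0.615% of LL animals. It lies outside the stretch between the matched primers, and the difference was not tested.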

How the results depend on the processing

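No paired analysis was possible because replicate numbers were given in accession order, and HL and LH share no animal, dam or cage. Leaving out 1 animal at a time, the CpGs past the adjusted threshold numbered 1 to 2 (Nr1h2 CpG 3 was added without LH replicate 4 or 8, Plagl1 CpG 3 without HL replicate 7), those with an unadjusted p under 0.05 from 30 to 43, loci past the threshold 0 to 2 (Pck1 without HL replicate 4, Pck1 and Lepr without LH replicate 5), loci with an unadjusted p under 0.05 from 3 to 5, and loci differing in spread without adjustment 0 to 1. CpGs past the threshold were 0 by limma on log2 ratios, 0 by limma on 4 groups, 0 on run means, 2 at a minimum of 1000 reads and 2 with a value in every animal (Lepr CpG 7 and Nr1h2 CpG 3 in each). Lepr CpG 7 had an adjusted p of 0.277, 0.284 and 0.310 in the first 3 of these, and from 0.0063 to 0.310 over all alternatives. CpGs with an unadjusted p under 0.05 were 58 by the quasi-binomial model, 20 with a value in every animal and 21 at levels of 2 to 98%. For loci the quasi-binomial model gave 2 past the threshold (Pck1 and Lepr) and 7 without adjustment, and run means gave 2. The cause of these changes was not tested, apart from the fewer CpGs or units in the stricter filters and run means. An alternative chosen after seeing the data, only CpGs between the matched primers, gave 1 CpG and 0 loci past the threshold. A minimum of 1000 reads for the spread, also chosen then, gave 0 loci, adjusted or not.

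The minima of 1 and 100 reads select the same values as the main analysis and are not counted. Of 50 single differences followed over 1393 other alternative values, 1329 kept direction and side of the threshold, and 43 differences never turned. Of the 50, only Lepr CpG 7 was past the threshold in the main analysis, and the CpGs followed were picked by p or size of difference in these data. For most of them, keeping direction and side was thus largely set in advance. The 7 that turned were locus means near 0. Insig2 ran from -0.0300 to 0.0162 points without 1 animal and was 0.00520 by limma on log2 ratios and 0.0111 with pooled reads. Lep ran from -0.657 to 0.826 and was -0.00325 by limma and -0.000603 on run means. Srebf2 ran from -0.0393 to 0.0183 and was 0.0138 by limma and 0.0183 at 1000 reads. Nr1h3 ran from -0.256 to 0.200 and was -0.0510 by the quasi-binomial model, -0.199 with values in 36 animals, -0.0377 with pooled reads, -0.108 with any tested CpG and -0.233 with only CpGs between the matched primers. Pparg ran from -0.151 to 0.0268 and was 0.0463 by the quasi-binomial model and 0.0585 with any tested CpG. Srebf1 ran from -0.0118 to 0.0186 and was -0.0364 by the quasi-binomial model and -0.000456 with pooled reads. Igf2 ran from -0.0666 to 0.0748 and was -0.260 at levels of 2 to 98%. Values of limma and of the quasi-binomial model are log ratios and not points.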

Other observations

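The 7 CpGs that were not tested were Rxra CpGs 1, 2 and 17 (each with values in 4 HL and 4 LH animals, at 1.04, 0.520 and 0.456%), Nr1h3 CpG 1, a single CpG at chromosome 4, 136020243, and 2 CpGs of Srebf1. The CpG at 136020243 had 44 methylated of 276 reads in 1 HL and 1 LH animal, 15.9%, and lay apart from every locus. Srebf1 CpG 1 had 0 of 111 reads methylated in 1 LH animal, which allows a share of up to 2.70%, and Srebf1 CpG 24 had no reads in either group.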
